A study of Homo sapiens with 10 samples.

Results

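The 84 genes described here encode the proteins of the cytosolic ribosome and their close paralogs. They were taken from the 58222 genes of a TPM table by symbol: RPL or RPS followed by a number, with an optional A, X or L, together with RPLP0, RPLP1, RPLP2 and RPSA. Of these, 77 are the core genes of the ribosome (46 of the large subunit, named RPL, and 31 of the small subunit, named RPS), and 7 are additional paralogs with an L in the name (RPL3L, RPL7L1, RPL10L, RPL22L1, RPL26L1, RPL39L and RPS27L). The rule leaves out pseudogenes, RPS6 kinases and 4 proteins of the ribosome that carry other names, such as FAU and RACK1, which were counted as a separate list.

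TPM divide the reads of a gene by its length and scale each library to the same total, so a level here is a share of the library. The cells were OVCAR-3, a long-established line from a human ovarian adenocarcinoma, in 5 groups with 2 biological replicates each, all grown in RPMI medium with 10% fetal bovine serum. Control cells were in standard culture, Day1 cells had spent 24 hours and Day3 cells 3 days immobilized in silica gel. Extracted cells had survived 3 days in the gel before a recovery of 2 weeks in standard culture. Treated cells had survived cisplatin, a DNA-crosslinking platinum drug, at 0.5 uM for 24 hours, followed by the same time of recovery. The labels do not say whether the survivors came from few or many founding cells. Epithelial ovarian carcinoma markers were present (13 of 14 reached 1 TPM in at least 2 libraries, with a summed level of 5742 to 8632 TPM). Fibroblast markers (2 of 7, 7.25 to 15.6 TPM), leukocyte markers (2 of 7, 1.07 to 2.65 TPM) and endothelial markers (0 of 5, 1.33 to 2.79 TPM) were low, and none of these genes was at 0 in every library.

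A cytosolic ribosome contains a single copy of nearly every ribosomal protein, so cells make these proteins in matched amounts. In vertebrates the match is set largely by translation: ribosomal protein mRNAs begin with a cytosine followed by a run of pyrimidines, the 5′ terminal oligopyrimidine (TOP) motif, through which mTORC1 signalling and the RNA-binding protein LARP1 control their translation and stability. Unassembled ribosomal proteins are degraded, and the 5S RNP proteins RPL5 and RPL11 can bind MDM2 when assembly is disturbed. TPM measure the mRNAs and say nothing of how well they are translated.

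The starts of the genes are shown because a C and T run at the first transcribed base is the TOP feature described above, which 42 of the 62 core genes with an entry have in these windows and 20 do not. The sequences are those of RefSeq on GRCh38.p14, with 15 bases before the start and the first 15 transcribed bases, 5′ to 3′. Capitals mark the unbroken run of C and T that begins with a C at the start. RPS16 is the most abundant member in Control and the one that fell most in Treated (chr19:39435935-39435964, minus strand). RPL28 and RPL13A rose most in Treated (chr19:55385917-55385946 and chr19:49487593-49487622, both plus strand). RPL39 rose most in Day1 (chrX:119791616-119791645, minus strand), and RPS6 is the S6 kinase substrate (chr9:19380222-19380251, minus strand). RPL22 with RPL22L1, and RPS27 with RPS27L, are pairs of a core gene and its paralog (chr1:6199581-6199610, minus; chr3:170870181-170870210, minus; chr1:153990747-153990776, plus; chr15:63157463-63157492, minus).
RPS16: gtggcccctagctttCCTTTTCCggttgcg
RPL28: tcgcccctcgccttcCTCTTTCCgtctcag
RPL13A: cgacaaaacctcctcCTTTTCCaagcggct
RPL39: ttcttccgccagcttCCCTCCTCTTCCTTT
RPS6: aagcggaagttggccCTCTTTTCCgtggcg
RPL22: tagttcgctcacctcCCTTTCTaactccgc
RPL22L1: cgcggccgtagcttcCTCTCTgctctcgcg
RPS27: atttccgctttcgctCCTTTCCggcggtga
RPS27L: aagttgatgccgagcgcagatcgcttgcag

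A promoter entry was found for 62 of the 77 core genes. A C at the annotated start followed by at least 4 bases of C or T was present in 42 of them (67.7%), and in 4.04% of the 27305 promoters of the same table. The run in the core genes had a median length of 7 bases, from 0 to 19. Of the 5 paralogs with an entry, RPL22L1 had the motif, and RPL7L1, RPL10L, RPL26L1 and RPS27L did not. CCGGAAG, searched on both strands from 250 bases before to 50 bases after the start, was in 33.9% of the core genes and 10.7% of all promoters. TATAAA was in 8.07% against 11.95%, and AAGATGG in 12.9% against 6.06%. A match describes letters near the annotated start only, and none of these motifs contains another. RPS28, which had no run at its annotated start, rose by 0.69 in Treated, within the range of the genes that had one.

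Every core gene was expressed at a high level in every library. In Control the core genes ranged from 365 TPM for RPS25 to 11733 TPM for RPS16, with a median near 1338 TPM. Both are proteins of the small subunit. RPS16 was measured at 11586 and 11880.2 TPM in the Control libraries. RPS3, which lines the mRNA entry channel, followed at 9971 and 10213 TPM, and RPS2, its neighbour on the small subunit, at 8665 and 9059 TPM. The 3 Control levels do not overlap. The order of the 77 genes differed little between groups: Spearman's rho with the Control order across genes was 0.989 for Day1, 0.990 for Day3, 0.982 for Extracted and 0.968 for Treated. At the top the order did change in the recovered groups. In the Extracted libraries the highest core level was 11009.6 and 11253.6 TPM, in each above that of RPS16. In Treated RPS16 (7911 and 7839 TPM) lay below RPS3 (12080.5 and 10251 TPM) and RPS2 (9388 and 10132 TPM).

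The 77 core genes together took a larger share of the TPM in all 8 experimental libraries than in Control. The share was 15.8% in both Control libraries. Day1 had 19.9% and 21.1%, Day3 20.1% and 19.7%, Extracted 18.5% and 19.3%, and Treated 19.4% and 17.2%. No experimental group overlapped Control, and the 2 Treated libraries lay furthest apart. Large subunit genes gave 7.71% and 7.69% in Control, and 9.93% and 10.3% in Day1, and small subunit genes 8.09% and 8.12%, and 9.95% and 10.7%. The 7 paralogs never exceeded 0.0408% of a library, and the pseudogenes 0.151%.

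Because TPM are shares, another abundant class moves these values. The 13 mitochondrially encoded mRNAs took up 16.7% and 15.8% of Control, 2.29% and 3.92% of Day1, 5.97% and 7.61% of Day3, 11.1% and 10.6% of Extracted, and 10.8% and 10.4% of Treated. Small RNA genes made up 14.7% of Treated replicate 2 and 0.196% to 3.21% of the other libraries. Within nuclear protein-coding TPM alone, the core share was 19.4% ± 0.139 in Control (mean ± SD, n = 2 here and below). Day1 reached 21.7% ± 0.984, Day3 22.0% ± 0.0783, Extracted 22.0% ± 0.0546 and Treated 23.1% ± 0.632. On this scale the experimental groups stayed above Control, and Treated was highest instead of Day1.

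**Figure D1:**
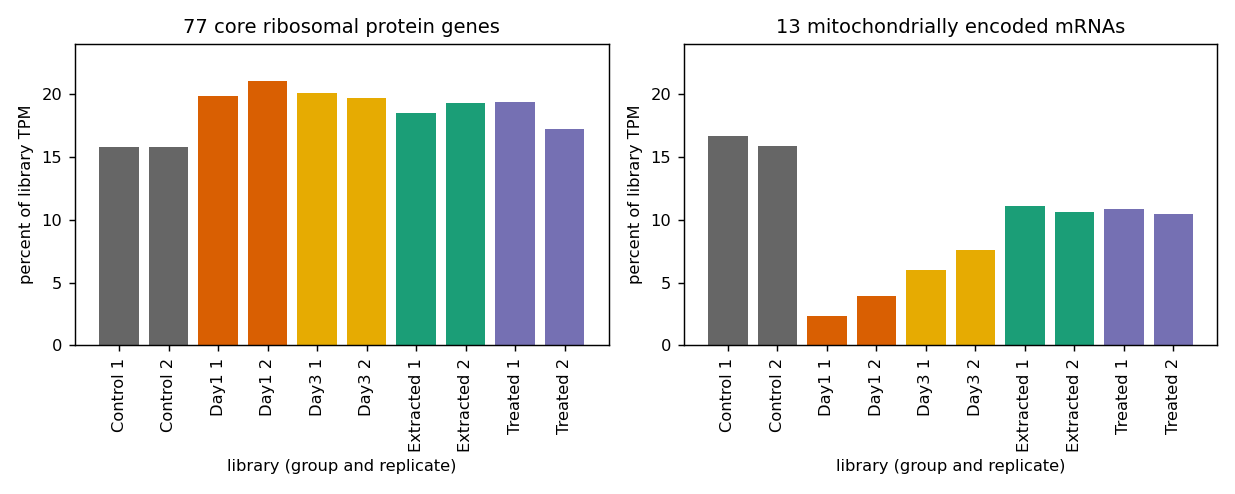
Share of each library's TPM, in percent, taken by the 77 core ribosomal protein genes (left) and the 13 mitochondrially encoded mRNAs (right), 1 bar per library and coloured by group. The core share is 15.8% in both Control libraries and 17.2% to 21.1% in the others, while the mitochondrial share falls from 16.7% and 15.8% in Control to 2.29% and 3.92% in Day1.

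Differences between groups were tested gene by gene with limma on log2(TPM + 1), and a call is an adjusted p (Benjamini-Hochberg, over the 15167 genes tested) under 0.05. All 77 core genes and 5 of the 7 paralogs passed the filter of 1 TPM in at least 2 libraries. Fold changes below are log2 differences with their standard error, on a scale where a pseudocount of 1 changes values this high very little. The 4 comparisons with Control share the 2 Control libraries, so they are not independent of each other.

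After 24 hours in silica gel, ribosomal protein mRNAs were higher as a block. In Day1 against Control, 54 of the 77 core genes rose and none fell, while 14.4% of all tested genes rose and 6.28% fell. Among 1379 other genes with a mean of at least 100 TPM, 24.1% rose and 6.6% fell. The median fold change of the core genes was 0.38, against 0.12 for all tested genes, and all 77 estimates were positive (0.10 to 0.75). Both Day1 libraries exceeded both Control libraries for 73 of the 77 genes, as they did for 42.1% of all tested genes. The rise covered both subunits, with 33 of 46 large subunit genes called (median 0.39) and 21 of 31 small subunit genes (median 0.36).

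RPL39, a small protein at the wall of the nascent peptide exit tunnel, changed most. It was at 1844 and 1738 TPM in Control and 2900.3 and 3139 TPM in Day1, and rose by 0.75 ± 0.087 (adjusted p = 0.000645). The 2 groups were far apart relative to their replicates. RPL36A, of the large subunit, rose from 2424 and 2517 to 3697 and 3867 TPM, by 0.61 ± 0.14 (adjusted p = 0.0163). RPS3A, of the small subunit, went from 2244 and 2170.4 to 3331 and 3402 TPM, a rise of 0.61 ± 0.10 (adjusted p = 0.00452). For both genes each Day1 library was well above each Control library. RPS6, the small subunit protein phosphorylated by S6 kinases, was at 2448 and 2443 TPM in Control and 3609.9 and 3792 TPM in Day1, a rise of 0.60 ± 0.13 (adjusted p = 0.0108). RPL30, which in yeast binds its own transcript, rose from 2129 and 2148 to 3041 and 3076 TPM, by 0.52 ± 0.076 (adjusted p = 0.00227).

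Among the members known for regulatory roles or for the stalk, RPL5, RPSA and RPLP0 rose in Day1, and RPL11, RPLP1 and RPLP2 did not pass the test there. Of the 5S RNP pair, RPL5 rose by 0.42 ± 0.097 (adjusted p = 0.0162), from 1337 and 1306 to 1829 and 1701 TPM. RPL11, its partner, was at 2125 and 2133 TPM and 2484 and 2627 TPM, a difference of 0.26 that did not pass the test (adjusted p = 0.0949). Its 2 groups did not overlap either. RPSA, also known as the laminin receptor precursor, rose by 0.43 ± 0.086 (adjusted p = 0.00825). In the stalk that recruits elongation factors, RPLP0 rose by 0.39 ± 0.094 (adjusted p = 0.0193), while RPLP1 (difference 0.24, adjusted p = 0.116) and RPLP2 (0.10, adjusted p = 0.464) did not pass. RPLP2 was at 634 and 643 TPM in Control and 648 and 727 TPM in Day1, the smallest difference of the family.

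To see which members departed from the block, each library was also centred on the median log2 level of its 77 core genes. A centred value says how a gene moved relative to a typical ribosomal protein gene. In Day1 only 1 core gene was called above the block (2.59% of all tested genes were) and 5 below it (35.8% of all tested genes). RPL39 stood above by 0.34 (adjusted p = 0.00629). The genes below were RPLP2 at -0.31, RPL36 at -0.29, RPL8 at -0.28, RPS26 at -0.23 and RPL12 at -0.20, with adjusted p from 0.0178 to 0.0497. The other 71 core genes were not called either way.

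The Day1 count depended on the Control libraries and on the scale. Without Control replicate 1 it was 9 and without Control replicate 2 it was 7, and without Day1 replicate 1 or 2 it was 32 and 28. The 7 genes called in all 4 of those fits were RPL9, RPL30, RPL32, RPL37, RPL39, RPS3A and RPS13. With libraries rescaled by the median of ratios, which moved the median of all tested genes from 0.12 to 0.00, 29 core genes rose and none fell (10.2% and 11.4% of all genes), and with nuclear protein-coding genes rescaled alone 21 rose and none fell (7.89% and 15.3%).

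**Figure D2:**
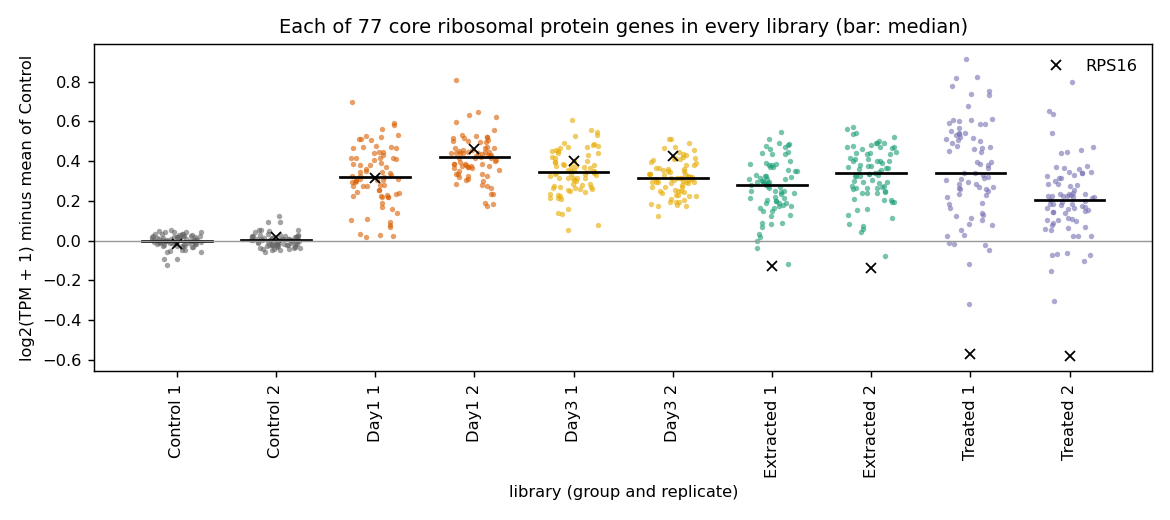
Each dot is 1 core ribosomal protein gene in 1 library, as log2(TPM + 1) minus its mean over the 2 Control libraries, coloured by group, with RPS16 as a cross and a bar at the median of the 77 genes. The medians are 0.32 and 0.42 for the Day1 libraries, 0.35 and 0.32 for Day3, 0.28 and 0.34 for Extracted and 0.34 and 0.21 for Treated, and RPS16 leaves the block in Extracted and Treated.

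On day 3 in the gel the block was still high. Of the 77 core genes, 30 rose against Control and none fell, where 5.18% of all tested genes rose and 4.64% fell (11.2% of the other genes of at least 100 TPM rose). The median fold change was 0.33, against 0.06 over all tested genes. All 77 genes were higher in both Day3 libraries than in both Control libraries, as were 38.9% of all tested genes. RPL39 led again at 2723 and 2556 TPM, a rise of 0.56 ± 0.087 (adjusted p = 0.00582). RPL13A, a large subunit protein that can also be released to silence inflammatory mRNAs, was at 903 and 924 TPM in Control and 1343 and 1301 TPM in Day3, a rise of 0.53 ± 0.13 (adjusted p = 0.033). RPS3A (0.51), RPL41 (0.49), the shortest protein of the ribosome, and RPS6 (0.49) followed, with adjusted p from 0.0182 to 0.0393. RPLP0 rose by 0.36 and RPSA by 0.37, whereas RPL5 (0.33, adjusted p = 0.0632), RPL11 (0.24), RPLP1 (0.27) and RPLP2 (0.14) did not pass.

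After centring, none of the core genes stood above the block in Day3 (0.943% of all genes did) and 8 lay below it (44.1% of all genes), with RPL8 at -0.29, RPLP2 at -0.28, RPS26 at -0.28, RPL12 at -0.20 and RPS10 at -0.20 named by size. The Day3 calls rested on having 2 Control and 2 Day3 libraries: leaving out Control replicate 1 gave 1 call, Control replicate 2 gave 0, Day3 replicate 1 gave 0 and Day3 replicate 2 gave 1. Without Extracted replicate 1 or 2 it was 10 and 11, and 66 without either Treated library. The median fold change was 0.32 to 0.35 over all fits that left out a library, and 0.18 with nuclear protein-coding genes rescaled. Under median-of-ratios scaling 30 were higher and 0 lower (5.26% and 7.82% of all genes), and under nuclear protein-coding rescaling 22 and 0 (3.49% of all genes rose).

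Between 24 hours and 3 days in the gel the block did not move detectably. In Day3 against Day1, limma called 0 of the 77 core genes in either direction (0.659% of all genes rose and 1.69% fell), and 1 had an unadjusted p under 0.05. The median fold change was -0.04 and the 77 estimates ran from -0.19 to 0.11, with a median standard error of 0.097. Both Day3 libraries were below both Day1 libraries for 29 core genes (31.6% of all genes) and above them for 1 (18.6%).

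In the cells recovered for 2 weeks after the gel the estimates stayed positive for 75 of 77 core genes. On the TPM scale fewer passed the test than in the gel. In Extracted against Control, 10 rose and none fell (0.857% of all tested genes rose, 1.13% fell, and 1.6% of other genes of at least 100 TPM rose). The median was 0.31, close to that of Day3, against -0.02 over all tested genes. Both Extracted libraries were above both Control libraries for 73 core genes (27.3% of all genes). RPL28, of the large subunit, went from 662 and 685 to 984 and 1000.2 TPM, a rise of 0.56 ± 0.097 (adjusted p = 0.024). RPL13 rose from 649 and 699.8 to 928 and 979.7 TPM, by 0.50 ± 0.087 (adjusted p = 0.024). RPS12 was at 1177 and 1146 TPM in Control and 1609 and 1666 TPM in Extracted, a rise of 0.50 ± 0.077 (adjusted p = 0.0178). In each of these the Extracted libraries lay clear of Control. RPLP2, RPL18, RPL17, RPL9, RPS13 and RPL30 were also called, with rises of 0.35 to 0.49. RPLP2, which had the smallest difference in Day1, was at 893 and 897 TPM here. The 2 negative estimates were RPS16 (-0.13) and RPS10 (-0.10), neither past the test.

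Relative to the block, 12 core genes lay below in Extracted (46.6% of all genes) and none above (0.541%). RPS16 was lowest at -0.50 (adjusted p = 0.00193), then RPS10 at -0.46, RPLP0 at -0.34, and also RPS9 at -0.33. The uncentred count of 10 moved widely with the libraries used. It was 0 without either Control, Extracted or Day3 library, 13 without either Day1 library and 49 without either Treated library. Under median-of-ratios scaling 34 were higher and 0 lower (2.14% and 2.13% of all genes), and under nuclear protein-coding rescaling 35 and 0 (1.83% and 6.02%). On these scales more core genes were called higher in Extracted than in Day1 (29 and 21) or Day3 (30 and 22). Of all genes 10.2% and 7.89% rose in Day1, and 5.26% and 3.49% in Day3. The order of the groups thus turned with the scale. With nuclear protein-coding genes rescaled the medians were 0.17 in Day1, 0.18 in Day3 and 0.24 in Extracted.

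The cells recovered after cisplatin showed the widest spread within the family. In Treated against Control, 35 core genes rose and 1 fell, where 6.28% of all tested genes rose and 18.2% fell (6.45% of the other genes of at least 100 TPM rose). The median was 0.27, against -0.15 over all tested genes, and the estimates ran from -0.58 to 0.77, with an SD over genes of 0.21 against 0.12 in Day1. Of the large subunit genes 25 of 46 rose (median 0.36), and of the small subunit genes 10 of 31 rose and 1 fell (median 0.23). This difference between subunits was not tested. Both Treated libraries were above both Control libraries for 66 core genes (18.3% of all genes) and below them for 4 (44.1%).

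RPL28 had the largest rise, from 662 and 685 TPM to 1122 and 1170.4 TPM (0.77 ± 0.097, adjusted p = 0.000767). RPL13A was at 903 and 924 TPM in Control and 1722 and 1267 TPM in Treated, a rise of 0.69 ± 0.13 (adjusted p = 0.00515). Its Treated libraries differed from each other more than the Control libraries did, but both lay above Control. RPS28, a small subunit protein near the mRNA exit, was at 374 and 427 TPM and 665 and 622 TPM, a rise of 0.69 ± 0.12 (adjusted p = 0.00326). RPL36 rose from 451 and 513 to 852 and 659.8 TPM, by 0.64 ± 0.13 (adjusted p = 0.00686). All 4 were higher in both Treated libraries than in either Control library.

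RPS16 went the other way. This small subunit protein, whose tail reaches the decoding site, was at 11586 and 11880.2 TPM in Control, 14579 and 16168 TPM in Day1, 15492 and 15777 TPM in Day3, 10725 and 10665 TPM in Extracted and 7911 and 7839 TPM in Treated. It was above Control in the gel and below Control in both recovered groups, with no overlap of libraries. It rose by 0.39 in Day1 (adjusted p = 0.0113) and by 0.41 in Day3 (adjusted p = 0.0164), and fell by 0.58 ± 0.083 in Treated (adjusted p = 0.00142). The Day1 rise lost its call under median-of-ratios scaling (0.25, adjusted p = 0.103) and with nuclear protein-coding genes rescaled (0.18, adjusted p = 0.116). Without Control replicate 1 or 2 it was 0.37 and 0.41, and was not called. The Day3 rise lost its call without any 1 of the Control or Day3 libraries, with estimates of 0.40 to 0.43. The fall kept its direction and its call in every fit that left out a compared library, under median-of-ratios scaling (adjusted p = 0.0171) and with nuclear protein-coding genes rescaled (-0.53, adjusted p = 0.000551). Against the block it was -0.91 (adjusted p = 3.34e-05), the lowest of the 77.

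The 5S RNP genes both rose in Treated, RPL5 by 0.35 (adjusted p = 0.0274) and RPL11 by 0.32 (adjusted p = 0.0448), and RPS6 rose by 0.53 (adjusted p = 0.0143). In the stalk only RPLP2 passed (0.49, adjusted p = 0.00541). RPLP0 differed by 0.02 and RPLP1 by 0.10, and RPSA by 0.14. Of the most abundant genes, RPS3 (0.14) and RPS2 (0.14) did not pass either. After centring, 6 core genes stood above the block (2.97% of all genes) and 13 below it (59.1%). RPL28 was highest at 0.43, and those below included RPS16, RPS10 at -0.55 and RPS9 at -0.40.

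Leaving out Control replicate 1 or 2 lowered the Treated count to 8 or 10. It was 34 without Treated replicate 1 and 56 without Treated replicate 2, the library with the high small RNA share. The 6 genes called in all 4 fits were RPL13A, RPL18, RPL28, RPLP2, RPS28 and RPS16. Median-of-ratios scaling moved the median of all tested genes from -0.15 to 0.00 and called 61 higher and 1 lower (12.4% and 11.6% of all genes), and under nuclear protein-coding rescaling 56 higher and 1 lower (10.0% and 23.1%). Fitted on the Control and Treated libraries alone, 5 rose and 1 fell.

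**Figure D3:**
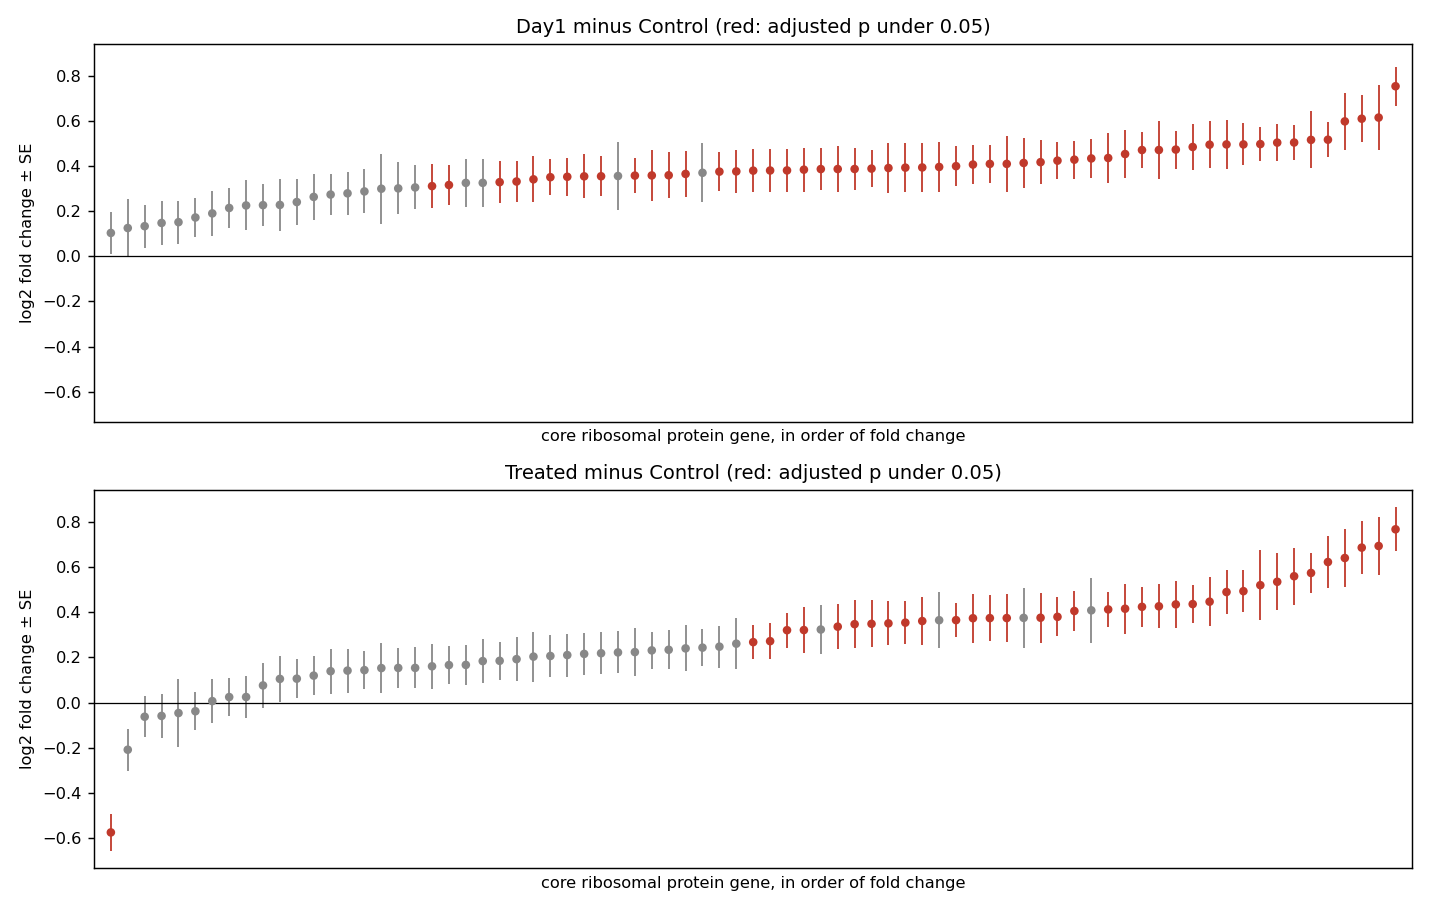
Log2 fold change, with its standard error as a vertical line, of each of the 77 core genes in Day1 (top) and Treated (bottom) against Control, ordered by size, with genes at an adjusted p under 0.05 in red. All 77 points are above 0 in Day1 (0.10 to 0.75), and in Treated they run from -0.58 for RPS16 to 0.77 for RPL28.

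Across the 4 comparisons with Control, which share those libraries, 5 core genes were called higher in all (RPL9, RPL17, RPL28, RPL30 and RPS13), and 11 in none (RPL8, RPL12, RPL34, RPLP1, RPS2, RPS3, RPS10, RPS15, RPS24, RPS26 and RPS29). RPS13, for example, was at 936 and 942 TPM in Control. Its Day1 libraries had 1278 and 1324 TPM, Day3 1241 and 1160.2, Extracted 1212 and 1270.1 and Treated 1124 and 1143. RPS26, of the small subunit and called in none, was at 986 and 977 TPM in Control and 1062 and 916 TPM in Treated, groups that overlap. How many of all tested genes were called higher in all 4 was not counted. In Day3 and in Extracted against Control, no core call held in every fit that left out a compared library.

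A few members differed between Extracted and Day3 cells, which differ in release from the gel, survival and 2 weeks of recovery together. In Extracted against Day3, 2 core genes rose (RPLP2 and RPS12) and 5 fell (RPS16, RPS18, RPLP0, RPL32 and RPS10). The median was -0.02. Among all genes 6.3% rose and 10.8% fell, larger shares than in the family. RPS16 fell by 0.55 ± 0.083 (adjusted p = 0.00227) and was the one core call present in all 4 fits that left out a compared library, with a count of 1 in each. The count of 7 was 2 without either Control library, 12 without either Day1 library and 16 without either Treated library. RPS18, the small subunit protein at the subunit bridge, fell by 0.35 (from 3619 and 3629 to 2809 and 2863 TPM, adjusted p = 0.0182). RPLP2 rose by 0.35 (from 663 and 746 to 893 and 897 TPM, adjusted p = 0.0309). RPLP0, its stalk partner, fell by 0.33 (adjusted p = 0.0381), from 3389.6 and 3402 to 2591 and 2817 TPM. The 2 stalk estimates had opposite signs, with no overlap of groups for either. Of all genes 27.4% lay above without overlap and 41.3% below. Neither stalk call held when a compared library was left out. Under median-of-ratios scaling RPL32 was the only large subunit gene called lower, so the RPLP0 fall was not called there. The split of 2 higher and 5 lower became 5 and 2 under median-of-ratios scaling (10.7% and 9.96% of all genes) and 12 and 7 with nuclear protein-coding genes rescaled (11.4% and 11.5%).

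Treated and Extracted cells, compared directly, differed in 1 core gene: RPS16 fell by 0.44 ± 0.083 (adjusted p = 0.0126), while 3.24% of all genes rose and 8.87% fell. The call was lost under median-of-ratios scaling (adjusted p = 0.0951), where 4 other core genes rose and none fell (6.35% and 4.74% of all genes), and was kept with nuclear protein-coding genes rescaled (-0.33, adjusted p = 0.0175), where 14 rose and 1 fell (7.17% and 8.19%). Without Extracted replicate 1 or 2 the count was 0 and 0, and without Treated replicate 1 or 2 9 and 13.

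RPS16 lies on chromosome 19 at chr19:39433207-39435948 on the minus strand (GRCh38, GENCODE 29). Its neighbours were looked at after its values had been seen. Counted were 46 tested protein-coding genes that start within 1 Mb of it and are not cytosolic ribosomal protein genes. They include MRPS12, a mitochondrial ribosomal protein gene. Of the 46, 30 fell in Treated against Control and 2 rose, with a median of -0.67 (65.2% fell, against 18.2% of all tested genes). In Extracted 11 fell and none rose (median -0.35), where 1.13% of all tested genes fell and 0.857% rose. In the gel the median was 0.00 in Day1 (11 rose, 6 fell, against 14.4% and 6.28% of all tested genes). In Day3 it was 0.06 (5 rose, 3 fell, against 5.18% and 4.64%). These genes were more abundant than most, with a median Control level of 66.1 TPM against 16.5 TPM for all tested protein-coding genes outside the family. Among genes outside the core with a mean of at least 100 TPM, 25.6% fell in Treated, 2.03% fell in Extracted and 24.1% rose in Day1. PLEKHG2, immediately beside RPS16, was at 304 and 330.4 TPM in Control, 165 and 163 TPM in Extracted and 134 and 125 TPM in Treated, where it fell by 1.28 (adjusted p = 5.44e-05). SUPT5H, an elongation factor of RNA polymerase II on the other side, fell by 0.90 (adjusted p = 0.00184). TIMM50, of the mitochondrial import machinery, fell by 1.10 (adjusted p = 4.17e-05), from 640.2 and 645 to 308 and 290.0 TPM. FBL, the rRNA methyltransferase fibrillarin, lies 410 kb away and fell by 0.99 (adjusted p = 5.44e-05), from 2562 and 2472 to 1309 and 1233 TPM. In Extracted FBL was at 1873 and 1856 TPM, between the other 2 groups. These genes were chosen after their values were seen.

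The same count was made around every core gene with at least 10 such neighbours. RPS16 ranked first of 57 by the median in Treated. The medians of the other 56 ran from -0.45 to 0.15, with a middle value of -0.14, and the largest share of neighbours that fell was 61.1%, around RPL10A (11 of 18). Around RPS16 the number that fell in Treated was 24 to 30 over all fits that left out a library, 26 with median-of-ratios scaling and 30 with nuclear protein-coding genes rescaled. The Extracted count of 11 was less stable, at 0 without Control replicate 2 or either Extracted library, 1 without Control replicate 1, 3 without either Day3 library, 18 without either Treated library, and 21 with nuclear protein-coding genes rescaled.

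**Figure D4:**
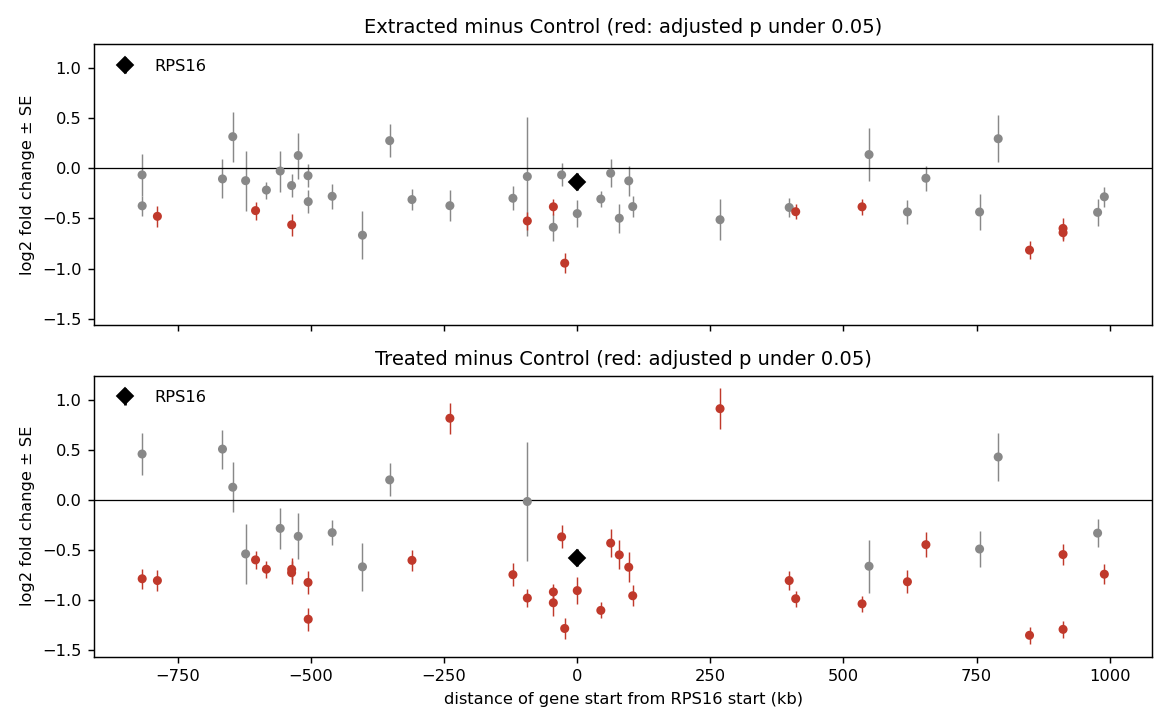
Log2 fold change, with its standard error as a vertical line, of the 46 tested protein-coding genes within 1 Mb of RPS16 in Extracted (top) and Treated (bottom) against Control, by the distance of their start from that of RPS16 in kb, with genes at an adjusted p under 0.05 in red and RPS16 as a black diamond. In Treated 30 of the 46 are called lower and 2 higher, and in Extracted 11 and 0.

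The paralogs did not simply follow the block. They were expressed at a few percent of their partners or less: in Control, RPL7L1 was at 4.13% and 3.52% of RPL7, RPL22L1 at 3.54% and 3.79% of RPL22, RPL26L1 at 2.55% and 2.64% of RPL26, RPL39L at 4.19% and 4.86% of RPL39, and RPS27L at 0.720% and 0.589% of RPS27. RPL3L, a form known from striated muscle, never exceeded 0.409 TPM, and RPL10L, a form known from testis, was listed at 0 in every library, so neither was tested.

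RPL22L1, the paralog of the RNA-binding protein RPL22, changed from group to group. It was at 61.7 and 62.3 TPM in Control, 82.8 and 75.6 TPM in Day1, 54.6 and 54.3 TPM in Day3, 83.5 and 85.9 TPM in Extracted and 62.5 and 59.6 TPM in Treated. Day1 and Extracted were high, Day3 was low, and Treated overlapped Control. Against Control it rose by 0.35 in Day1 (adjusted p = 0.0246) and by 0.44 in Extracted (adjusted p = 0.0415). The Day1 call was lost under median-of-ratios scaling (0.21, adjusted p = 0.0747) and with nuclear protein-coding genes rescaled (0.14, adjusted p = 0.266), where Day3 was instead called lower than Control (-0.33, adjusted p = 0.0248). Both rises were also lost without either Control library (adjusted p of 0.116 to 0.268), that of Day1 without Day1 replicate 1, either Day3 or either Extracted library, and that of Extracted without either Extracted or either Day3 library. It fell by 0.53 ± 0.090 from Day1 to Day3 (adjusted p = 0.0205) and rose by 0.63 ± 0.090 from Day3 to Extracted (adjusted p = 0.00195), a call that held in all 4 fits leaving out a compared library. In Treated it fell by 0.46 relative to Extracted (adjusted p = 0.0145). The Day3 fall from Day1 was lost without Day1 replicate 1 (adjusted p = 0.121) or either Day3 library (0.159 and 0.174), and the Treated fall without either Extracted library (0.0882 and 0.123). RPL22 itself was at 1743 and 1644 TPM in Control and 2299 and 2198, 2168 and 2005, 1919 and 2078 and 2505 and 1896 TPM in Day1, Day3, Extracted and Treated, so the paralog was 2.52% and 2.71% of its partner in Day3 and 4.35% and 4.13% in Extracted.

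RPL26L1 rose with its partner in Day1, from 52.2 and 52.1 to 86.6 and 74.3 TPM (0.61, adjusted p = 0.0108), where RPL26 rose by 0.52 (adjusted p = 0.0198). RPL39L and RPL7L1 parted from theirs in Treated. RPL39L fell from 77.3 and 84.4 to 61.7 and 51.3 TPM (-0.51, adjusted p = 0.00802), while RPL39 rose by 0.38 (adjusted p = 0.0124). RPL7L1, which takes part in early ribosome assembly, fell from 77.8 and 66.9 to 51.7 and 49.2 TPM (-0.51, adjusted p = 0.0148), while RPL7 rose by 0.37 (adjusted p = 0.029). The RPL39L fall lost its call without Control replicate 2 (adjusted p = 0.0774), and that of RPL7L1 without Control replicate 1 (0.113) or Treated replicate 2 (0.0519). The rises of RPL39 and RPL7 in Treated, and of RPL26 and RPL26L1 in Day1, lost theirs without either Control library, and the latter pair also without Day1 replicate 1. The difference between paralog and partner was not itself tested. RPS27L, a known p53 target, was at 46.8 and 37.8 TPM in Control and 36.5 and 39.7 TPM in Day1 and passed in no comparison. Against the block it was called lower in Day1 (-0.56), Day3 (-0.44) and Treated (-0.34), as were 35.8%, 44.1% and 59.1% of all tested genes. RPS27 rose by 0.35 in Day1 and 0.37 in Day3, calls lost with nuclear protein-coding genes rescaled (0.14, adjusted p = 0.252, and 0.22, adjusted p = 0.107). Paralogs and partners are similar in sequence, and the sources used here do not give how reads that match both were counted.

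**Figure D5:**
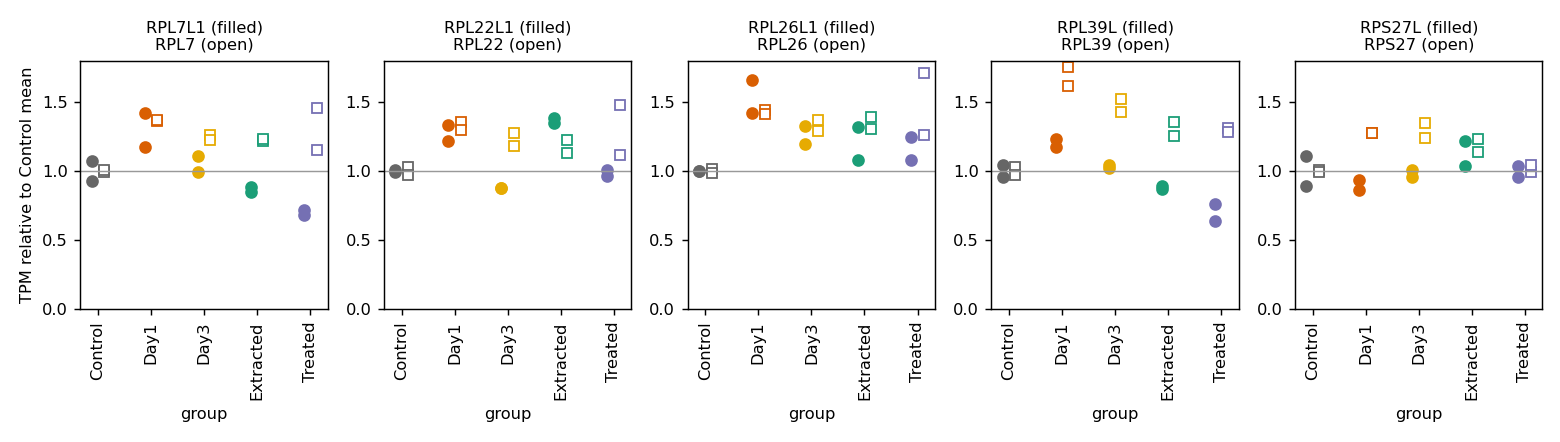
TPM of the 5 tested paralogs (filled circles) and their core partners (open squares), each divided by its own Control mean, with 1 symbol per library and the groups along the x axis. RPL22L1 is low in Day3 and high in Extracted, and RPL39L and RPL7L1 fall below Control in Treated while RPL39 and RPL7 stay above it.

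What else the members share was described with no test, on features chosen after their values had been seen. The 42 core genes with the TOP-type start and the 20 without it had similar medians: 0.39 and 0.38 for Day1, 0.35 and 0.31 for Day3, 0.32 and 0.28 for Extracted and 0.27 and 0.22 for Treated. This split sorts genes by the annotated start, so it cannot compare mRNAs with and without the TOP motif. RPL9, for example, counts as without it but has a C and T run a few bases downstream. GC content of the principal transcript (GENCODE 29) went with the Day1 fold change across the 77 genes (Pearson's r = -0.55, Spearman's rho = -0.52; for 12804 other protein-coding genes r = -0.21), where genes are not independent replicates and share libraries. The r was -0.32 in Day3, -0.10 in Extracted and -0.07 in Treated, and 0.52 in Day3 against Day1. The 25 core genes of lowest GC (42.1% to 47.3%) had a median of 0.41 in Day1 and the 25 of highest GC (53.6% to 63.1%) 0.33. In the single libraries the high-GC median minus the low-GC median was -0.18 in Day1 replicate 1 and -0.01 in Day1 replicate 2, and -0.16 and 0.00 in the Treated replicates, so it differed between replicates of a group. The part of base composition in the gene order within Day1 was not tested further.

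The counts for other lists of the translation machinery can be read against those for all tested genes in the comparisons with Control. Day1 had 14.4% of all genes higher and 6.28% lower, Day3 had 5.18% and 4.64%, Extracted had 0.857% and 1.13%, and Treated had 6.28% and 18.2%. With nuclear protein-coding genes rescaled the shares were 7.89% and 15.3% for Day1, 3.49% higher for Day3, 1.83% and 6.02% for Extracted and 10.0% and 23.1% for Treated. On that scale 1449 of 13140 genes were called lower in Day3. The 4 ribosomal proteins outside the naming rule had medians of 0.36, 0.32, 0.11 and 0.16 in Day1, Day3, Extracted and Treated against Control. In Day1 3 rose, FAU and RACK1 among them, and 2 rose in Day3. After rescaling 0 rose in Day1, Day3 and Extracted (medians 0.15, 0.17 and 0.04), and 2 rose in Treated (median 0.21). Of 18 TOP mRNAs outside the family, 9, 5, 1 and 3 rose in those comparisons and none fell. After rescaling, 3, 2, 4 and 8 rose, and 2 fell in Day1 and 1 in Treated, so the order of the counts turned. TPT1, a classical TOP mRNA, rose in all 4, by 0.53, 0.45, 0.64 and 0.75. Of 45 cytosolic translation factors, 12 rose in Day1 and none fell, and in Treated 2 rose and 5 fell, with EIF3K, another chromosome 19 gene within 1 Mb of RPS16, down by 0.79. After rescaling 6 rose and 5 fell in Day1 (median 0.01 against 0.22 before), and 7 rose and 8 fell in Treated.

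Of 78 mitochondrial ribosomal proteins, which build the separate ribosome of that organelle, 18 rose and 2 fell in Day1 (median 0.20), 1 rose and 1 fell in Day3, 0 passed in Extracted by limma (17 had an unadjusted p under 0.05), and 11 fell and none rose in Treated (median -0.07). The 11 that fell in Treated are a smaller share of the list than the 18.2% of all genes. With nuclear protein-coding genes rescaled, 7 rose and 8 fell in Day1, and the Day1 median was 0.00 for this list and 0.17 for the cytosolic core genes. Among 76 genes of rRNA processing and ribosome assembly, 8 rose and 2 fell in Day1 (median 0.12), 1 rose in Day3, FBL fell in Extracted, and 1 rose and 11 fell in Treated (median -0.18), again a smaller share than among all genes. After rescaling the balance of calls turned in the gel, with 6 higher and 13 lower in Day1 (median -0.09). In Day3 none was higher and 10 were lower (median -0.17). The median of all genes turned as well, from 0.12 to -0.06 in Day1 and from 0.06 to -0.06 in Day3. The Day1 counts lay near the rescaled shares of all genes, 7.89% higher and 15.3% lower. The turn was thus not limited to this list. The Treated falls included FBL (-0.99) and BYSL (-0.96), an assembly factor of the small subunit. Of 15 genes of RNA polymerase I and its factors, 3 rose and 1 fell in Day1, with TAF1C down by 0.86, and 1 rose and 3 fell in Treated. Of 10 genes of the MYC network, 2 rose in Day1 and 1 fell in Treated. After rescaling, the Day1 counts were 1 higher and 2 lower for the first of these lists and 1 and 1 for the other.

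Of 18 snoRNA host RNAs, many of them TOP transcripts, 6 rose and 5 fell in Day1 and 3 and 3 in Day3. None fell in the recovered groups, where 5 (Extracted) and 7 (Treated) rose. ZFAS1 rose in all 4 (by 1.45, 0.95, 0.89 and 1.21), whereas SNHG12 fell by 1.38 in Day1. Among 18 genes of mTORC1, S6 kinase and LARP regulation, 3 rose and 1 fell in Day1, near the shares of all genes, and after rescaling 3 rose and 3 fell. DDIT4 and SESN2, stress-induced inhibitors of mTORC1, rose by 2.14 and 1.89 there, and by 0.89 and 0.65 in Day3. In Treated 2 genes of this list rose and 4 fell (6.28% and 18.2% of all genes). After rescaling 2 rose and 6 fell in Treated (10.0% and 23.1%). Of 17 genes around p53, MDM2 and the 5S RNP checkpoint, 4 rose and none fell in Day1, led by CDKN1A, the cell cycle inhibitor p21, at 2.00. After rescaling 3 rose and none fell there. In Treated 1 of them rose and 1 fell.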

How the data were processed

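Total RNA of 10 OVCAR-3 samples was sequenced, 2 biological replicates in each of 5 groups. The labels do not say what separated the replicates, so p-values measure the spread between these samples, which may be partly technical. The authors deposited TPM per gene and library, made with Trimmomatic, STAR and Cufflinks on GRCh38, per the submitters' processing notes. Their versions, the annotation and the strandedness are not stated in the labels. The values carry no counts, so depth is unknown and no counting interval is given. The 58313 gene entries (and 349 blank lines) were summed to 58222 identifiers, 91 being repeats. Biotypes and positions are from GENCODE 29, which held 57959 of the identifiers (99.55%) and all 84 ribosomal protein genes under the same symbol.

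The 15167 genes that reached 1 TPM in 2 or more libraries were fitted with limma 3.58.1 (R 4.3.3) on log2(TPM + 1) with a mean-variance trend, 1 coefficient per group, all 10 libraries and 5 residual degrees of freedom, for 7 comparisons. Tests were two-sided and p-values adjusted by Benjamini-Hochberg within a comparison. Named are the 5 largest called rises and falls and the 5 largest called deviations from the family median per comparison, the 3 most abundant core genes, RPL5, RPL11, RPLP0, RPLP1, RPLP2, RPS6, RPSA, the paralogs with their partners, and of other lists up to 3 called genes; some of these genes are not reported here. Alternatives tried were centring on the core median, rescaling by the median of ratios or over nuclear protein-coding genes, 2 groups alone, a replicate block, no filter or one at 5 TPM, a 0.1 pseudocount, a 2-fold minimum and leaving out each library. The members and lists were chosen with earlier results of these data known, so no list is independent evidence. Tables and plots used Python 3.11.15, pandas 2.3.3, NumPy 2.4.6, SciPy 1.17.1 and Matplotlib 3.10.9.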

Additional observations from a re-analysis of the deposited data

Results flagged for a closer look

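Both recovered groups share the 2 weeks of regrowth and differ in what the cells had survived, and there RPS16 differed, at -0.44 in Treated against Extracted. RPL22L1 also differed between these groups, at -0.46, and between the 2 times in the gel, at -0.53 in Day3 against Day1. These values are log2 differences that limma called between 2 groups compared with the same Control, and each is thus a test of the difference between their effects. The RPL22L1 call between the recovered groups was lost without either Extracted library (adjusted p = 0.0882 and 0.123), as was that of RPS16 (0.0927 and 0.1085), which was also lost with median-of-ratios scaling (0.0951). The RPL22L1 call in the gel was lost without Day1 replicate 1 (0.121), either Day3 library (0.159 and 0.174) or Extracted replicate 2 (0.0502).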

How the results depend on the processing

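With 2 libraries a group and no depth, small differences rest on the shared estimate of the spread, and every count of calls but that of Day3 against Day1 (0 throughout) depended on the libraries and the scale. Counts of called core genes, higher and lower together, are given in the order Day1, Day3, Extracted and Treated against Control, Extracted against Day3, and Treated against Extracted; as reported they were 54, 30, 10, 36, 7 and 1. Without a filter they were 15, 2, 0, 14, 0 and 0, when many low genes enter the trend and the adjustment. Median-of-ratios scaling gave 29, 30, 34, 62, 7 and 4, nuclear protein-coding rescaling 21, 22, 35, 57, 19 and 15, and centring 6, 8, 12, 19, 11 and 1. Fits of the 2 groups alone gave 57, 70, 52, 6, 20 and 0, the 5 TPM filter 59, 37, 16, 41, 7 and 1, and a 2-fold minimum 0 in every comparison. The cause of these shifts was not tested. Leaving out a library gave 7 to 67, 0 to 66, 0 to 49, 8 to 56, 1 to 16 and 0 to 13. Around RPS16, alternatives added after the data were seen gave, for genes lower in Extracted (11), 4 without a filter, 21 with nuclear protein-coding rescaling, 35 after centring, 7 with the replicate block and 0 to 18 without a library, and for Treated (30) 24 to 30 without a library.

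Replicate numbers did not pair the libraries: deviations of same-numbered libraries correlated at -0.022 to 0.087. With the replicate block the counts were 52, 28, 8, 35, 4 and 1.

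Of 76 named calls, 76 kept direction and call with a pseudocount of 0.1 and with the 5 TPM filter, 56 with median-of-ratios scaling and 59 with nuclear protein-coding rescaling, but 18 and 19 without Control replicate 1 and 2, 25 with no filter, 54 with the compared groups fitted alone, 69 with the replicate block and 0 with a 2-fold minimum. Without a library of another group 41 to 75 were kept. Centring, which subtracts the change in the family's median level, turned 21 rises into small values below 0. The median centred change of the core genes was itself below 0 in these comparisons. In Day1 these were RPL10 at -0.0628, RPL18 at -0.102, RPL22 at -0.00805, RPL22L1 at -0.0709, RPL28 at -0.106, RPL5 at -0.000424, RPLP0 at -0.0310, RPS12 at -0.0599, RPS16 at -0.0290, RPS27 at -0.0651 and RPS9 at -0.0307. In Day3 they were RPL10 at -0.0835, RPL28 at -0.0176, RPL32 at -0.00242, RPLP0 at -0.0636, RPS16 at -0.00491, RPS27 at -0.0508 and RPSA at -0.0535. The others were RPL30 in Extracted at -0.00803, and RPL11 at -0.0157 and RPS12 at -0.0163 in Treated.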
